A study of Mus musculus with 217 samples.

Results

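A set of 8 genes of the unfolded protein response and of the ATF4 response was followed through single chondrocytes of the mouse growth plate. The 8 genes were taken from a list by name, and all 8 are among the 9739 genes of the deposited table. They are the transcription factor genes Atf4, Ddit3 and Xbp1, the pseudokinase gene Trib3, the asparagine synthetase gene Asns, the amino acid transporter gene Slc38a2 and the endoplasmic reticulum (ER) chaperone genes Hspa5 and Hsp90b1. Their levels were read in the cell profiles that carry the cartilage proteoglycan gene Acan: 39 without and 68 and 69 with a lower and a higher level of Col10a1. Only 11 other distinct profiles, with little or no Acan, came out of the 217 deposited columns. Col10a1 and Fos served as axes. Col10a1 encodes the collagen of hypertrophic cartilage, and Fos is an immediate-early gene whose transcript is known to appear quickly when cells are disturbed.

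The unfolded protein response is the reaction of a cell to unfolded protein in the ER, where secreted proteins such as the collagens of cartilage are folded. Its sensors in the ER membrane act through the factors XBP1 and ATF6, which are known to turn on chaperone and degradation genes, and through PERK, a kinase that slows translation and lets ATF4 be made. Other kinases of the same translation factor, among them the amino acid sensor GCN2, also act through ATF4, whose known targets include genes of amino acid supply and the stress genes Ddit3 and Trib3. Both ATF4 and XBP1 are controlled largely after transcription, by translation and by splicing, so that the level of their transcripts reports on their activity only in part.

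All cells came from the microdissected growth plate of the tibia at postnatal day 7, from mice of the C57/BL strain with a wild-type genotype. They form 1 group of 1 sample, with no treatment and no second genotype. The labels name no animal, litter or plate, so no test between groups was possible and no p-value is given. Full-length cDNA of polyA RNA was made from each cell with SMARTer chemistry, and libraries were made with Nextera XT.

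Of the 217 columns, 52 fell into 23 sets of near-identical columns (17 sets of 2 and 6 sets of 3, r above 0.95) and were averaged within each set, and 1 column, read earlier as a mixture of profiles, was left out. Values, read as log2 with the base inferred, ran from 0 to 15.14 and had been scaled per cell before deposit, so sequencing depth is unknown. Whether they are per transcript length is not given in the sources used here, and the levels of different genes are therefore not ranked against each other. A gene was called detected in a profile at a log2 value of at least 1. The number of genes detected ran from 1326 to 4994 per profile, with a median of 3463.5. Acan split the profiles without a middle ground, with 2.91 as the highest value below the threshold of 5 and 6.67 as the lowest above it. All 14 chondrocyte markers were measured and their median share of the profiles with Acan, called chondrocyte profiles here, was 100%. An exception was Col2a1, the main cartilage collagen gene, which was detected in 21% and never exceeded 3.14, so a low value or a 0 in this table does not show that a gene was off. The median share was 2.27% for the 1 endothelial marker measured, 5.40% for 4 markers of macrophages and other blood cells, 8.52% for 3 of muscle, 18.2% for 8 of osteoblasts and 37.2% for 2 of fibroblasts and perichondrium. The osteoblast markers ran from 6.82% for Dmp1 to 88.6% for Col1a2, whose highest level was 12.29.

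Atf4, the factor gene that the amino acid and ER branches share, was detected in 92 chondrocyte profiles, 52.3% (95% exact Clopper-Pearson interval 44.6 to 59.8%, which covers counting error over profiles only). Its log2 level ran from 0 to 4.57 with a median of 1.14. It was thus low wherever it was found, and 57 profiles list it at 0. Xbp1, the factor gene of the IRE1 branch, was detected in 87 profiles (49.4%, 41.8 to 57.1%), from 0 to 5.03 with a median of 0.97. Ddit3, which encodes the stress factor CHOP, was detected in 99 profiles (56.2%, 48.6 to 63.7%), from 0 to 9.42 with a median of 3.21. It was listed at 0 in 73 profiles, and where it was detected it ran from 1.13 upward with a median of 5.47. Trib3, a target of ATF4 and CHOP that restrains them, was detected in 67 profiles (38.1%, 30.9 to 45.7%). Its median over all profiles was 0 and its highest level was 7.45.

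Asns and Slc38a2, the members of amino acid supply, were detected in nearly every profile. Asns was detected in 170 (96.6%, 92.7 to 98.7%), from 0 to 10.86 with a median of 8.45. Slc38a2, the SNAT2 transporter of small neutral amino acids, was detected in 98.3% (95.1 to 99.6%), from 0 to 10.96 with a median of 8.25. Hsp90b1, which encodes the ER chaperone GRP94, was the 1 member detected in every chondrocyte profile (100%, 97.9 to 100%), from 4.35 to 11.30 with a median of 8.72. Hspa5, which encodes BiP, the ER chaperone that also holds the sensors inactive, was detected in 78.4% (71.6 to 84.2%), from 0 to 5.20 with a median of 1.98.

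Detection of Hspa5 and Atf4 depended most on the limit used. Under a stricter limit, 10 on the back-transformed scale, Hspa5 was left in 12.5% of profiles and Atf4 in 2.27%. Xbp1 also fell, to 10.8%. How reads shared with near-identical copies such as pseudogenes were counted is not given in the sources used here, which limits what these levels show. Repeat columns of the same set differed in whether Atf4 was detected in 8 of 23 sets and in whether Hspa5 was detected in 7 of 23. The SD between repeats was 0.62 for Atf4 and 0.71 for Hspa5, against SDs between profiles of 1.13 and 1.26, so that much of the spread of both genes also appeared between repeats. Asns had an SD of 0.24 between repeats and 2.06 between profiles, and for Ddit3 these values were 0.70 and 3.06. Hsp90b1 (0.21 against 1.08), Trib3 (0.47 against 2.15), Slc38a2 (0.46 against 1.96) and Xbp1 (0.32 against 1.51) were likewise steadier between repeats than between profiles.

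Both chaperone promoters carry the ER stress response element, the site known to be bound by ATF6 together with NF-Y. The letters searched were CCAAT, then 9 bases of any kind, then CCACG, on both strands, in the RefSeq window from 250 bases before to 50 after each gene's start (GRCm38.p6, the build that mm10 names). They are shown because both chaperone members hold them and the other 6 members do not, with the motif or its reverse complement in capitals. The Hspa5 stretch is chr2:34771995-34772073 on the plus strand and the Hsp90b1 stretch is chr10:86705503-86705686 on the minus strand, both 5′ to 3′ along the gene.
Hspa5: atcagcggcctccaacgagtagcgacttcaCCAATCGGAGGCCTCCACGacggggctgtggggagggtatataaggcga
Hsp90b1: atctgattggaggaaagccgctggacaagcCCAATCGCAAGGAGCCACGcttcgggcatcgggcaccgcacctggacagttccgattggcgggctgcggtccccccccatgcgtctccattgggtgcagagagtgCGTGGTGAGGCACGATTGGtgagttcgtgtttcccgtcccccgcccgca
These letters were in 39 of 32851 promoters (0.119%), in 2 of the 8 members and in 5 of 18 other ER chaperone and folding genes with a promoter entry, Calr, Canx, Pdia6, Dnajc3 and Creld2. Hsp90b1 holds 1 copy on each strand. The XBP1 element TGACGTGG was in 0.676% of promoters, in 2 of the 18 chaperone genes, Txndc5 and Txndc11, and in 0 of the 8 members. A match is a description of the letters and does not show binding.

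On the amino acid side, the letters TGATGNAA of the element bound by ATF4 with C/EBP factors were in the promoters of Asns and Trib3, 2 of the 8 members, against 3.97% of all promoters. They were in 12 of 30 promoters of other known ATF4 targets. The longer form TTGCATCA, whose reverse complement is 1 case of TGATGNAA, was in 0.895% of promoters and in 11 of the 30, and in 0 members. The Asns stretch (chr6:7693210-7693262, minus strand) is shown with that of Gars (chr6:55037941-55038000, plus strand), the glycine tRNA synthetase gene that followed Asns across cells as described further on. Of the 4 genes nearest to Asns, 2 were matched to a promoter, Gars and Phgdh, and 1 of these, Gars, holds the element. Capitals mark the element, which is on the gene's own strand in Asns and on the opposite strand in Gars, and each stretch ends at the base before the start.
Asns: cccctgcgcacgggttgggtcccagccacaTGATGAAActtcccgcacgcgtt
Gars: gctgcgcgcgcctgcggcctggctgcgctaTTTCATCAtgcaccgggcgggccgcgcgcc
The other genes are all protein coding in the same build: Atf4 at chr15:80255184-80257545, Ddit3 at chr10:127290793-127296291, Trib3 at chr2:152337425-152344060, Slc38a2 at chr15:96687392-96699728 and Xbp1 at chr11:5520641-5525993.

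Along Col10a1, the marker of hypertrophy, 1 member differed by more than the threshold. Profiles were split into 39 with Col10a1 under 1 and, at the median of the rest, 68 with a lower and 69 with a higher level. Ddit3 ranged from 0 to 9.42 (median 0) without Col10a1, from 0 to 8.23 (median 4.34) at the lower level and from 0 to 8.53 (median 3.61) at the higher level. The groups overlapped over nearly their whole range, and the share of cells with the transcript differed: 14 of 39 (35.9%, 21.2 to 52.8%), 45 of 68 (66.2%, 53.7 to 77.2%) and 40 of 69 (58%, 45.5 to 69.8%). The level among only those cells with the transcript was not compared between the groups. The mean Ddit3 level was 3.29 ± 3.14 (SD over 69 profiles) at the higher Col10a1 level and 1.64 ± 2.51 (SD, 39 profiles) without Col10a1, a difference of 1.65 on the log2 scale. A difference of at least 1 was found for 15% of 5379 genes and one of at most -1 for 3.12%, so a count of 1 in 8 members was not above this background. The number of genes detected also differed between these groups, with medians of 3025, 3452.5 and 3595. Within profiles with fewer and with more genes detected, split at the median, the Ddit3 difference was 1.61 and 1.62. Among the profiles with Col10a1 the rank correlation of Ddit3 with Col10a1 was -0.05, so the difference lay between cells with and without Col10a1 and did not grow with its level.

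**Figure D1:**
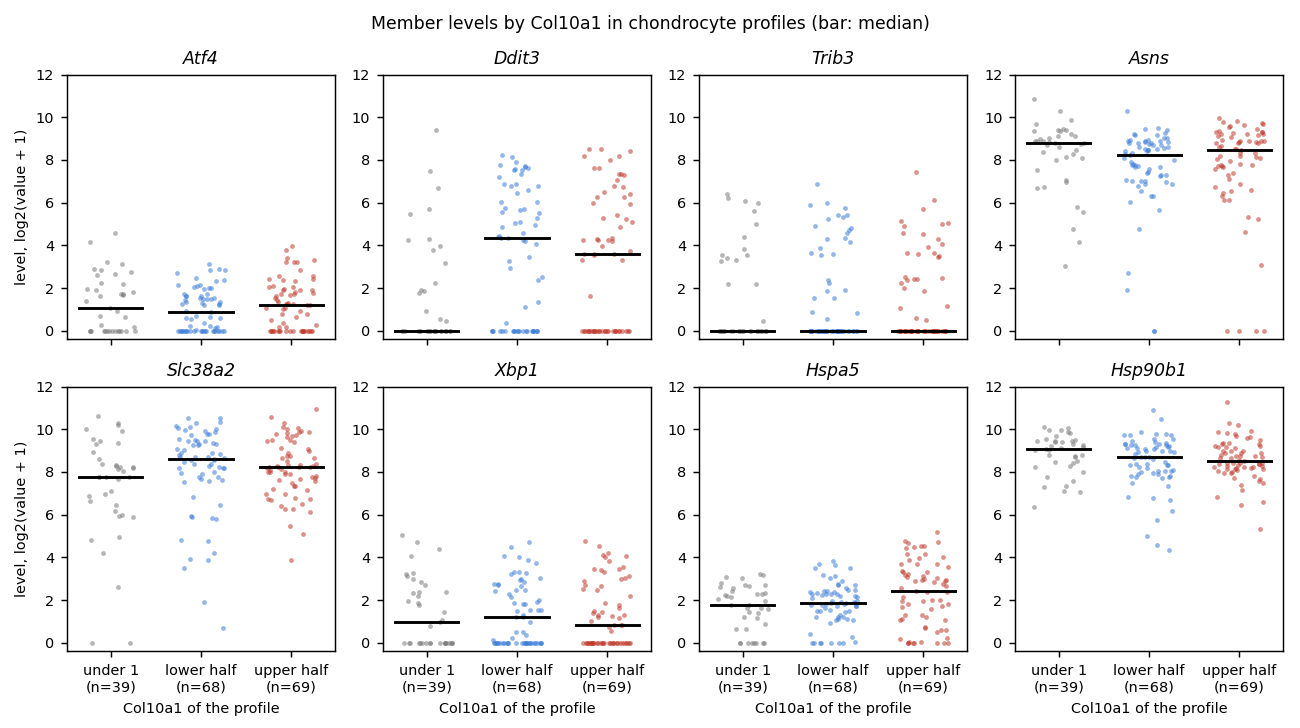
Log2 level of each of the 8 genes (vertical axis) in single chondrocyte profiles, in 3 groups by the Col10a1 level of the profile (39 under 1, and 68 and 69 below and above the median of the rest). Each point is 1 profile and each bar a median; the Ddit3 medians are 0, 4.34 and 3.61, while the groups of every gene overlap.

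The chaperone and transporter genes differed less. Hspa5 ranged from 0 to 3.24 (median 1.77) without Col10a1, from 0 to 3.84 (median 1.87) at the lower and from 0 to 5.20 (median 2.44) at the higher Col10a1 level. The groups overlapped, and the highest Hspa5 values lay in the last group. The difference in Hspa5 mean was 0.67, and it was 0.17 within profiles with fewer genes detected and 1.08 within those with more. Slc38a2 had means of 8.20 ± 1.38 (SD, 69 profiles) at the higher Col10a1 level and 7.32 ± 2.47 (SD, 39 profiles) without Col10a1, a difference of 0.88. This difference was 1.10 with upper-quartile scaling and 0.26 within profiles with more genes detected, so whether Slc38a2 passed the threshold of 1 changed with the processing. Asns differed by -0.51, which was -1.51 within profiles with fewer genes detected and 0.04 within those with more. The differences of the remaining members were smaller, with -0.25 for Hsp90b1, -0.22 for Trib3, -0.09 for Xbp1 and -0.06 for Atf4. The median over the 8 members was -0.08, against 0.31 over all genes.

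Stage markers gave the same picture of overlap. The profiles were sorted into 29 with none of the transcripts Col10a1, Ihh and Ibsp, 69 with Col10a1 alone, 41 with Ihh, the signal of prehypertrophic cells, but without Ibsp, and 37 with Ibsp, the bone sialoprotein gene of late hypertrophic cells. Hspa5 had medians of 1.64, 1.87, 1.85 and 2.90 in these 4 sets, with 0 as the lowest value in each and 3.18, 3.84, 5.20 and 4.75 as the highest. The median was thus highest in the Ibsp set, whose median number of genes detected was also the highest, 3682 against 2954 in the set without the 3 transcripts; the part of genes detected in this was not tested. Ddit3 medians were 0, 4.34, 1.87 and 3.56, with no order along the sets. In the 11 profiles without Acan at the threshold, 9 of which had Ibsp (median 12.96 in these 9), Hspa5 was detected in 10 and ran from 0 to 6.02 with a median of 3.83. Asns was detected in 7 of these 11, from 0 to 10.92 with a median of 7.21, and Slc38a2 in all 11, from 7.73 to 11.65 with a median of 9.64.

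As rank correlations over the chondrocyte profiles, which share 1 sample and differ in genes detected, the members followed neither axis. With Col10a1 Spearman's rho ran from -0.12 for Hsp90b1 to 0.19 for Hspa5, and 0 of 8 members reached 0.3 or -0.3, against 3.2% and 0.93% of 5379 genes. The median over the members was 0.01 and that over all genes 0.06. With Fos the range was -0.05 for Hsp90b1 to 0.28 for Hspa5, and again 0 of 8 reached 0.3 or -0.3, against 1.1% and 0.13% of genes. The medians were 0.03 over the members and 0.07 over all genes. Hspa5 was the member highest on both axes, at the 98.1 percentile of genes for Fos. Its level also followed the number of genes detected (rho 0.37), as did Fos (0.39) and Col10a1 (0.33). Given genes detected, the rho of Hspa5 was 0.15 with Fos and 0.07 with Col10a1, and 0 of 8 members reached 0.3, against 0.13% and 1.39% of genes. With upper-quartile scaling the rho with Fos was 0.34, past the threshold, where 5.37% of genes passed it.

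**Figure D2:**
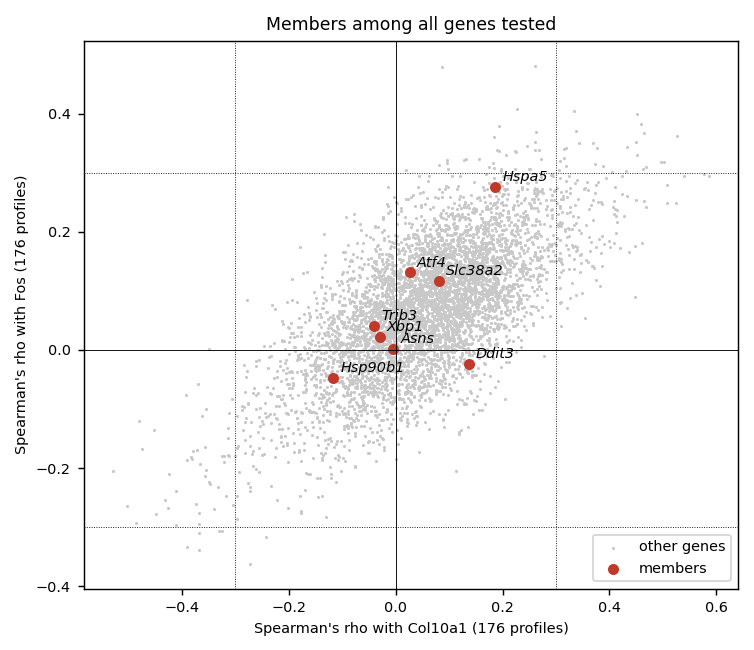
Spearman's rho with Col10a1 (horizontal axis) and with Fos (vertical axis) over the chondrocyte profiles for every gene tested (grey) and the 8 members (red, named); dotted lines mark 0.3 and -0.3. Every member lies inside the dotted lines, with Hspa5 highest at 0.19 and 0.28.

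Grouped by Fos into 58, 59 and 59 profiles of low, middle and high level, 0 of 8 members differed by 1 or more between high and low, against 10.1% of genes upward and 0.669% downward. This count changed with the processing: Slc38a2 reached 1.13 with upper-quartile scaling and 1.28 with repeats kept apart, and Hspa5 reached 1.09 with a pseudocount of 0.1. Hspa5 had means of 2.49 ± 1.30 (SD, 59 profiles) in the high and 1.71 ± 1.14 (SD, 58 profiles) in the low group, a difference of 0.78. It was 0.23 and 0.67 within profiles with fewer and with more genes detected. Slc38a2 differed by 0.75, and by 0.02 and 0.18 within profiles with fewer and with more genes detected. Asns differed by 0.59, and by 0.53 and 0.07 within these sets. Ddit3, which differed most by Col10a1, differed by 0.06 between the Fos groups. Within profiles with fewer and with more genes detected its difference was -0.71 and -1.16, the second past the threshold of -1. The Fos groups were cut anew inside each set, so these values compare other groups of cells than the pooled 0.06. Atf4 differed by 0.30 between the Fos groups, and among 15 immediate-early genes its highest rho was with Jun, at 0.21.

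Rank correlations between the members were low. Over their 28 pairs the median rho was 0.06, from -0.10 to 0.23, and 18 pairs lay above 0, where 64.2% of all gene pairs did. No pair reached 0.3, which 0.147% of all gene pairs did, and the median of all pairs was 0.03. A rho of 0.2 or more was found for 2 pairs, against 2.10% of all pairs. One was Ddit3 with Trib3 (0.23), CHOP and its known target: 47 of the 67 profiles with Trib3 also had Ddit3, which was in 56.2% of all profiles. The other was Atf4 with Asns (0.20). The ER chaperone genes Hspa5 and Hsp90b1, whose promoters share the element shown earlier, had a rho of 0.07. All these values are low, and for Atf4 and Hspa5 the spread between repeats given earlier limits them.

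**Figure D3:**
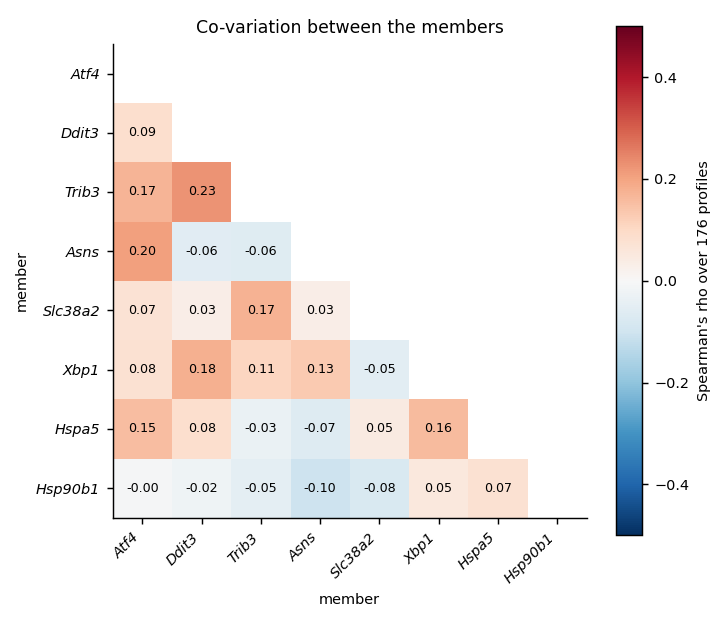
Spearman's rho over the chondrocyte profiles for each of the 28 pairs of the 8 genes (colour and printed value). The highest value is 0.23 for Ddit3 with Trib3 and no pair reaches 0.3.

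Asns stood with a small set of genes outside the 8. A rho of 0.3 or more with Asns was reached by 4 of 5379 genes (0.0744%): Eif4ebp1 (0.41), which encodes the translation repressor 4E-BP1, Gars (0.41), Phgdh (0.38), the first enzyme of serine synthesis, and Nars (0.34), the asparagine tRNA synthetase gene. All 4 are in the lists of known ATF4 targets, of which 33 genes were tested of 40 measured and 45 listed. The fifth gene, Slc7a3, a transporter of cationic amino acids, is in the lists as well (0.298). These lists were first meant to be read against Atf4 and were set against Asns after its nearest genes had been seen, so the counts are a description. With Pearson's r on the log2 values 61 of all genes reached 0.3, and 5 of these are in the lists. Given genes detected, the rho of the 4 genes was 0.40, 0.40, 0.37 and 0.34, almost the same.

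Across the 3 Asns groups of 58, 59 and 59 profiles, Eif4ebp1 had medians of 6.02 (from 0 to 8.40), 6.93 (1.04 to 9.59) and 7.35 (0 to 9.79). Gars had medians of 6.26 (from 0 to 9.04), 7.23 (0 to 9.10) and 7.83 (0 to 9.38). Phgdh had medians of 1.84 (from 0 to 8.21), 4.99 (0 to 8.36) and 6.29 (0 to 8.88). Each gene was higher by its median in each next group, while the groups overlapped over most of their range. This rise only restates the rho, since the 4 genes were picked by their rho with Asns in the same profiles. Nars had medians of 3.0 (from 0 to 5.07), 3.29 (0 to 4.91) and 3.88 (0 to 5.54), and the median number of genes detected was 3288.5, 3551 and 3483. Among the 4 genes themselves, the 6 pairs had a median rho of 0.28, from 0.11 for Phgdh with Nars to 0.39 for Eif4ebp1 with Nars.

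**Figure D4:**
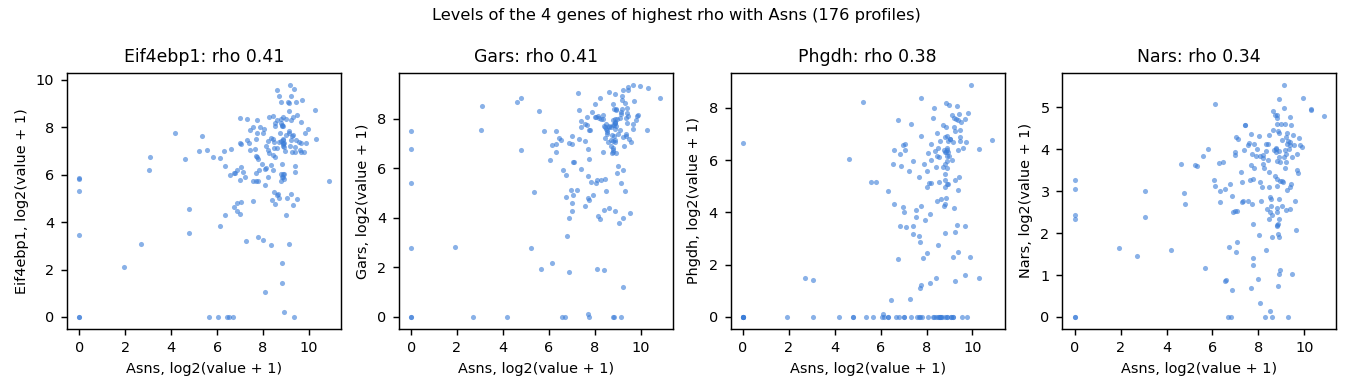
Log2 level of Eif4ebp1, Gars, Phgdh and Nars (vertical axes) against that of Asns (horizontal axis) in the chondrocyte profiles, 1 point each. The clouds are broad, with rho of 0.41, 0.41, 0.38 and 0.34, and in each panel some profiles with high Asns list the other gene at 0.

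The ATF4 targets tested had mostly positive rho with Asns, and only the 4 genes named earlier reached the threshold. These 4, Eif4ebp1, Gars, Phgdh and Nars, are counted in the medians with Asns that follow. No median was taken without them. Most of all genes tested also had a rho above 0 with Asns, down to at least rank 3203 of 5379 (Hsp90aa1, 0.0012). The median rho with Asns was 0.16 over the 33 genes, with 31 above 0, against 0.02 over all genes. It was 0.21 over 14 genes of amino acid synthesis and transport, all 14 of which were above 0, and 0.18 over 10 genes that charge or export tRNA, 9 of them above 0. Over 9 transcription factor and stress genes it was 0.09, and the lowest was Gadd45a (-0.20), a growth arrest gene. With upper-quartile scaling 7 listed genes reached 0.3, but so did 39 of all genes (0.725%) where the unscaled values gave 4. The 3 lists had a median rho of 0.09 with Atf4 and 0.10 with Trib3, against 0.02 and 0.03 over all genes. With Atf4 1 of the 33 reached 0.3, Nars at 0.31, which was the 1 gene of all 5379 (0.0186%) to do so. Given genes detected Nars was at 0.2995, under the threshold. With Ddit3 the median was 0.06 against 0.03, and 0 of 33 reached 0.3, against 0.0186% of all genes.

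**Figure D5:**
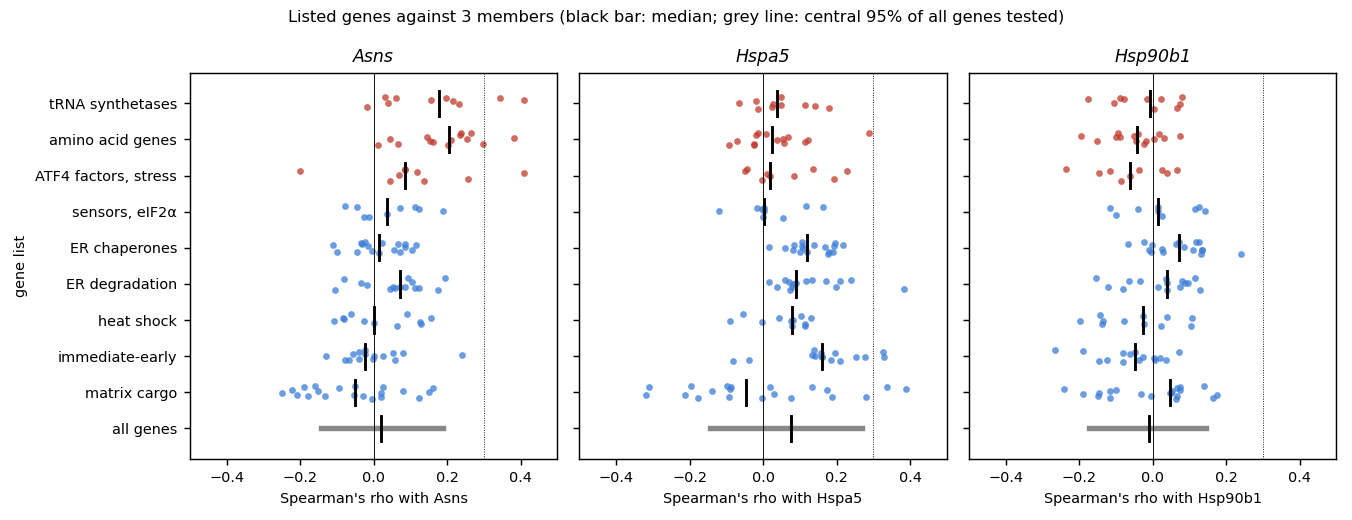
Spearman's rho of each listed gene with Asns, Hspa5 and Hsp90b1 over the chondrocyte profiles, by gene list (points; black bars are medians), with the central 95% of all genes tested as a grey line. In the Asns panel the amino acid genes have a median of 0.21 and the tRNA synthetases 0.18 against 0.02 for all genes; in the Hspa5 panel the ER chaperones have a median of 0.12 against 0.07.

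The nearest genes of the other stress members were few, and given genes detected no gene was at 0.3 with Atf4, Ddit3 or Trib3 and 1 was with Slc38a2. Ppp1r15a, which encodes GADD34, the subunit that reverses the translation block of the ATF4 response, was the 1 gene at 0.3 or more with Ddit3 (0.32, 0.0186% of genes). It was also among the 3 genes nearest to Atf4 (0.28), with Nars (0.31) and the phosphatase gene Dusp14 (0.29). Trib3 had 1 gene at 0.3 or more, Osgin2 (0.32, 0.0186%), followed by Garem (0.29) and Chac1 (0.29), the glutathione-degrading target of ATF4. Slc38a2 was nearest to Ttc9c (0.34), Taok1 (0.32) and Cep350 (0.31), and 0.112% of genes reached 0.3 with it. Xbp1 had no gene at 0.3, and its nearest were Eif3c, Ddost and Herpud2, each at 0.27. Ddost is a subunit of the enzyme that attaches sugar chains to proteins in the ER.

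The 2 ER chaperone genes differed in their 3 nearest genes. Hspa5 had 65 genes at 0.3 or more (1.21%), led by the glycolytic gene Pkm (0.43), the ER channel gene Sec61b (0.40) and Rps15a-ps4 (0.39), a ribosomal pseudogene whose reads may belong to its parent gene. Of 90 ribosomal protein genes tested, 14 (15.6%) were among the 65. Given genes detected, 20 genes (0.372%) were left at 0.3. Hsp90b1 had no gene at 0.3 and 0.0558% of genes at -0.3 or lower, and its nearest were Copb1 (0.29), a coat protein of transport from the Golgi, Atp5f1 (0.28) and Ruvbl1 (0.28). At rank 10 it had Sec61a1 (0.25), an ER channel gene like Sec61b.

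The wider ER folding genes followed Hspa5 only weakly. All 17 ER chaperone and folding genes tested, of 24 measured, had a rho above 0 with Hspa5, at a median of 0.12 against 0.07 over all genes. Given genes detected, these medians were 0.09 and 0.01. Of the 17 genes 0 reached 0.3, against 1.21% of all genes. With the median of all genes above 0, most genes tested were above 0 too, as were all 15 ER degradation genes. The highest were Manf (0.22), Ppib (0.20) and Creld2 (0.19), and the lowest was Dnajb9 (0.02). Of 15 ER degradation genes, 1 reached 0.3, against 1.21% of all genes. It was Vcp (0.38), the segregase that pulls proteins from the ER, and the median over the 15 genes was 0.09. Derl1 (0.24) and Edem1 (0.21) came next and Ube2j1 was lowest (0.02). Over 11 cytosolic heat shock genes the median was 0.08, with Dnajb1 (0.13) highest and Hsp90aa1 (-0.09) lowest, and over 9 sensor and eIF2alpha genes it was 0.00, from 0.16 for Ppp1r15a to -0.12 for Eif2s1. With Hsp90b1 the chaperone genes had a median of 0.07 against -0.01 over all genes, and 12 of 17 were above 0. With the median of all genes below 0, most genes tested were below 0 with Hsp90b1.

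The proteins that the ER of these cells folds gave values in both directions. Of 20 genes of secreted cartilage matrix, 2 had a rho of at least 0.3 with Hspa5, against 1.21% of all genes. They were Comp (0.39) and Acan (0.34), and Matn1 followed at 0.28. In the other direction 2 reached -0.3, against 0.186% of all genes. They were Hapln1 (-0.32), the link protein gene whose product ties aggrecan to hyaluronan, and Epyc (-0.31), a small leucine-rich proteoglycan gene. Given genes detected, the values were 0.31 for Comp, 0.32 for Acan and -0.27 for Hapln1, and the median over the 20 genes without that adjustment was -0.05. Of the immediate-early genes, 2 of 15 reached 0.3 with Hspa5, Fosb and Jun (each 0.33), against 1.21% of all genes, and given genes detected 0 did. Their median was 0.16, and 0.10 given genes detected.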

How the data were processed

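The authors deposited values read here as log2, 1 column per cell. The submitters' processing notes name TopHat and mm10. No quantifier, annotation, filter or abundance unit is given in the sources used here. Base 2 was inferred: the totals per cell, back-transformed, varied least so (coefficient of variation 7.33%, against 14.8% for base e and 190.5% for base 10). A pseudocount of 1 was assumed for each base, and this comparison cannot tell pseudocounts apart. Of all values 62.3% are 0, and a 0 can be a failed estimate. Depth is unknown, and no doublet caller was run. All columns matched a sample. The 1 row without a gene name was left out.

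Columns with r above 0.95 were averaged, 1 mixed column was left out, and profiles with Acan of at least 5 were kept. Genes detected in at least 20% of these profiles (5380) were tested, all 8 members among them. Spearman's rho, also given genes detected (a partial rank correlation), was called at 0.3 and -0.3, and differences of means at 1 and -1 on the log2 scale. Differences on this scale understate changes of low genes. Percentiles are among the genes tested. Cells are not replicates, so no test was run. The members and lists were chosen with earlier results of these data known. Named genes were the members, the 3 genes of highest rho with each, and in each list the 3 of highest and 1 of lowest rho with Hspa5 or Atf4. Genes named beyond this rule were picked after seeing their values. Promoters are from RefSeq (GRCm38.p6). The steps were tested on simulated data. Tools were SciPy 1.17.1, pandas 2.3.3, NumPy 2.4.6 and matplotlib 3.10.9 under Python 3.11.15.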

Additional observations from a re-analysis of the deposited data

How the results depend on the processing

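Of 61 main values under 19 settings, 57 stayed within their tolerance (0.1 for rho, 0.25 for log2 differences, 1.5 times for counts), and no called value changed sign. The exceptions were these. The median share of profiles per member, 67.3%, was 77.8% with any value above 0 as detection and 36.6% with a limit of 10 on the back-transformed scale. The median difference of the members by Col10a1, -0.08, was -0.38 within profiles with fewer genes detected. The number of ATF4 targets at 0.3 with Asns, 4, was 7 with upper-quartile scaling. The cause was not tested. The member medians of rho and of differences were smaller than the tolerances and were not called, so staying within them says little. Some changed sign between settings. The median rho ran from -0.04 to 0.10 with Col10a1 and from -0.03 to 0.11 with Fos. The median difference ran from -0.38 to 0.15 by Col10a1 and from -0.04 to 0.38 by Fos. Of 400 single values, 331 stayed and 69 moved. Upper-quartile scaling moved the median difference of all genes from 0.31 to 0.45 by Col10a1 and from 0.32 to 0.49 by Fos. The Ddit3 difference by Col10a1 stayed above 1 under all 8 settings run (1.28 to 2.24). That of Slc38a2 passed 1 under 4 of them and that of Hspa5 under 1. The number of all genes at 0.3 with Asns, 4, was 61 with Pearson's r. The settings for Asns, those by genes detected and the mixed column kept were chosen after seeing the data. In the settings by genes detected, the groups by Col10a1 and by Fos were cut anew among the profiles kept. No paired analysis was possible because there is only 1 group. Leaving out a replicate was not possible, since no animal is named. Depth is unknown, so a gene listed at 0 may lie below detection.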

Other observations

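The ER folding genes ranged from detected everywhere to listed at 0 in most profiles. P4hb, Pdia3, Pdia6 and Ppib, which form disulfide bonds or turn prolines in collagen chains, were detected in 100% of the chondrocyte profiles and Calr, the lectin chaperone calreticulin, in 99.4%. Canx, the membrane-bound partner of calreticulin, was detected in 5.11% (95% exact interval 2.36 to 9.49%), and Serpinh1, the collagen chaperone HSP47, in 2.27% (0.623 to 5.72%). Hyou1, which works with BiP, was detected in 12.5% and Sdf2l1 in 8.52%. Canx never exceeded 3.14 and Serpinh1 never exceeded 2.82 on the log2 scale. Col2a1, which chondrocytes are known to express strongly, was likewise detected in only 21%, so these values can be failed estimates and do not show absence.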
